A study of Mus musculus with 36 samples.

Results

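The tricarboxylic acid (TCA) cycle and the metabolism of alpha-ketoglutarate are described here through 35 genes, picked by symbol for the cycle's enzymes, the enzymes that make or use alpha-ketoglutarate and their mitochondrial carriers. All 35 were found among the 57126 genes in the files of primordial germ cells (PGCs) and the 56262 in the files of gonads. The samples were 36 bulk RNA libraries from fetal mice, all labelled wild type, with 3 libraries in each of 12 groups. Gonads of E13.5 (embryonic day) female ICR fetuses gave 3 control and 3 IUHG (intrauterine hyperglycemia) libraries. PGCs were sorted by the fluorescence of an Oct4-EGFP transgene that is active in germ cells. They gave 3 control and 3 IUHG libraries at E12.5 (no sex named) and, for females and males apart, at E13.5 and E16.5. In the IUHG groups, dams had received streptozotocin (STZ), which is toxic to insulin-producing cells, at 120 mg/kg on day 3.5 and had blood glucose over 14 mM on day 6.5, so STZ and high glucose cannot be told apart. Each library was a pool of gonads or of sorted cells from several fetuses and not a single animal. By the most frequent ratio of coverage to FPKM over genes, gonad libraries were estimated at 3.89 to 4.95 gigabases and PGC libraries at 3.25 to 8.32 gigabases. Only 22.9 to 23.2% of the genes used in gonads and 51.2 to 57.6% in PGCs lay close to that ratio. Reads per gene are not known.

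In the mitochondrion the TCA cycle oxidizes the acetyl group of acetyl-CoA and supplies electrons to the respiratory chain. Alpha-ketoglutarate arises from isocitrate or from glutamate, and enzymes that demethylate DNA and histones use it while releasing succinate, with fumarate and succinate acting as inhibitors. Citrate that leaves the mitochondrion can be split into acetyl-CoA for lipids and for histone acetylation.

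Levels are in TPM, transcript abundance per length scaled to one total per library, so members could be compared with each other in their TPM. Gonads came from matings of ICR mice and PGCs from matings with *Oct4-EGFP* males, which the paper counts as different mouse strains. Gonads and PGCs also differed in library preparation (Smart-seq2 amplification for PGCs), aligner and annotation. A difference in TPM between them may also come from any of these. Fold changes are differences of mean log2(TPM + 1), a scale that understates changes of genes with low TPM. Each was tested with limma (two-sided, adjusted over all genes tested), and a gene is said to rise or fall where the adjusted p was under 0.05. A differentially expressed gene (DEG) in gonads also had to change by a log2 value of 1 or more in either direction. In PGCs a DEG had to change by over 1 with an adjusted p under 0.01. An exact permutation test of 3 against 3 libraries cannot go below a two-sided p of 0.1, so separation of libraries is given in words. Positions are as listed in the files, where those of PGCs are on Mm39 by the methods. For gonads the methods name mm9 while the labels name mm39, and the listed positions fit GRCm38 better, so that build is not certain.

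Markers of cell types were read first, since the level of a gene in a pool also depends on which cells it holds. All 6 of 6 germ cell genes (*Pou5f1*, *Dppa3*, *Dazl*, *Ddx4*, *Dnd1* and *Kit*) reached 1 TPM in every library. Their sum was 552, 461 and 495 TPM in control and 771, 713 and 653 TPM in IUHG gonads, with *Dazl* the most abundant in 5 of the 6. In PGCs the sum lay between 1684.8 TPM in E16.5 female IUHG library 2 and 9467 TPM in E13.5 male control library 3. The sum was thus at higher TPM in sorted PGCs than in gonads, across different preparations, though not each gene was, with *Pou5f1* for example at 13.6, 5.64 and 5.34 TPM in E16.5 female controls and 91.4, 59.2 and 74.8 TPM in control gonads. Of the 3 meiotic genes (*Stra8*, *Rec8* and *Sycp3*), the sum in E13.5 female PGCs was 3505, 3401 and 3187 TPM in control and 874, 887 and 722 TPM in IUHG libraries, with *Stra8* the most abundant. It was 128, 139.9 and 139.8 TPM in control and 296, 259.5 and 261 TPM in IUHG libraries of E13.5 males. For E16.5, where *Sycp3* led, it was 5153, 4756 and 4846 TPM in control and 6784, 5654 and 7145 TPM in IUHG female PGCs. Within the germ cell list the E16.5 female groups differed, with *Dppa3* at 253, 227 and 184 TPM in control and 14.5, 2.53 and 9.81 TPM in IUHG libraries and *Kit* at 48.1, 53.2 and 45.1 and 19.2, 7.91 and 14.3 TPM, both chosen after their values were seen. Of the 6 genes 3 fell there, 2 of them as DEGs, while the sum was led by *Dazl*. Female PGCs at E13.5 thus differed in meiotic transcripts between control and IUHG without overlap, and E13.5 male PGCs did so in the other direction at lower levels in the sum, with *Sycp3* going against it. In those males, chosen after their values were seen, *Stra8* rose from 8.73, 13.0 and 11.7 to 175, 138 and 134 TPM and *Sycp3* fell from 115, 122 and 124 to 103, 107 and 110.5 TPM. In gonads the 3 meiotic genes summed to 185, 341 and 279.6 TPM in control and 341, 248 and 206 TPM in IUHG libraries, which overlapped.

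The sum of 3 male germ cell genes (*Nanos2*, *Dnmt3l* and *Piwil4*) was 35.6, 40.3 and 40.5 TPM in control and 9.49, 4.84 and 7.02 TPM in IUHG male PGCs at E13.5, with *Nanos2* the most abundant. It was 983, 1014 and 957 TPM in control and 992, 987 and 989 TPM in IUHG male PGCs at E16.5, where *Dnmt3l* led, and at most 19.7 TPM in female PGCs. All 4 Y-linked genes (*Ddx3y*, *Eif2s3y*, *Kdm5d* and *Uty*) reached 1 TPM in male PGCs at E13.5 and in E12.5 PGCs, while their sum stayed under 1 TPM in female PGCs. Their sum was 210.1, 194 and 212 TPM in control and 148, 129.6 and 154 TPM in IUHG PGCs at E12.5. No sex is named for these pools, so the share of male cells may differ there. In male control PGCs at E13.5 it was 151, 183 and 167 TPM, below all E12.5 controls. E12.5 pools thus held male cells, and changes from E12.5 to either sex mix stage with the sex of the cells. *Xist* was at 163, 221 and 228 TPM in control gonads and at most 2.46 TPM in PGCs. At E16.5 it was at 2.16, 1.89 and 1.37 TPM in female and 0.121, 0.167 and 0.0858 TPM in male control PGCs, and at E13.5 at 0.260, 0.291 and 0.406 and 0.156, 0.163 and 0.174 TPM. In E12.5 control PGCs *Xist* was at 0.0819, 0.119 and 0.226 TPM, overlapping male controls of E13.5 and below female ones. How far the E12.5 pools were male was not tested. Y-linked genes thus told the sexes of PGC pools apart, and *Xist* was higher in control females without overlap, at low levels. Sertoli genes (*Amh*, *Sox9*, *Dhh* and *Cst9*, 4 of 4 in the files) summed to 88.7, 75.4 and 95.3 TPM in control and 35.8, 29.1 and 17.3 TPM in IUHG male PGCs at E16.5, with *Cst9* the most abundant, and to 59.3, 56.0 and 56.5 and 85.7, 75.8 and 52.6 TPM at E13.5. Interstitial and steroid-making cells (*Star*, *Cyp11a1*, *Cyp17a1*, *Pdgfra* and *Col1a1*, 5 of 5) gave 95.9, 60.1 and 36.3 TPM in control and 33.2, 37.1 and 30.5 TPM in IUHG libraries of that group. At E13.5 these 5 genes summed to 18.8, 16.7 and 22.5 TPM in control and 2.35, 2.97 and 1.91 TPM in IUHG male PGCs. In female PGCs at E16.5 they summed to 8.70, 8.18 and 18.7 TPM in control and 28.5, 37.7 and 33.1 TPM in IUHG libraries, led by *Col1a1*. That sum was thus higher in IUHG females without overlap through *Col1a1*, the 1 gene of 3 tested that passed, while *Star* and *Pdgfra* did not differ past the threshold. Sertoli and interstitial transcripts in male PGCs were low beside those of germ cells. In males they were lower in IUHG without overlap for interstitial genes at E13.5 and for Sertoli genes at E16.5.

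In gonads, 6 red blood cell genes were led by *Hba-a1* and summed to 14357, 11342 and 13090.0 TPM in control and 8650.1, 7351 and 8042 TPM in IUHG libraries. The interstitial genes, led by *Col1a1*, summed to 849, 635 and 624 and 416, 439 and 463 TPM. IUHG gonads thus had less of both sums without overlap. Of the 5 interstitial genes only *Col1a1* passed, and *Cyp17a1* (119, 2.30 and 1.36 TPM in control), *Cyp11a1* (67.6, 1.18 and 1.18) and *Star* (23.6, 5.67 and 5.37) were highest in control library 1. The 4 pregranulosa genes (*Foxl2*, *Fst*, *Irx3* and *Wnt4*) summed to 168, 238 and 253 TPM in control and 232, 239.9 and 231 TPM in IUHG gonads, led by *Wnt4*, and to at most 34.0 TPM in PGCs. The 4 endothelial genes (*Pecam1*, *Cdh5*, *Kdr* and *Emcn*) summed to 225, 243 and 222 TPM in control and 235, 254 and 267 TPM in IUHG gonads, and in PGCs *Pecam1*, which germ cells also carry, led in all libraries but E16.5 male IUHG library 3. The 4 leukocyte genes (*Ptprc*, *Csf1r*, *Adgre1* and *Tyrobp*) summed to at most 32.5 TPM in gonads, led by *Csf1r*, and at most 15.5 TPM in PGCs.

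Several libraries stood apart from the others of their group. Gonad control library 1 had all 4 Y-linked genes (sum 51.3 TPM), which were at 0 in the other 5 gonad libraries, and its Sertoli genes summed to 262 TPM, most of it *Amh*, against 9.15 to 11.4 TPM in the others. This pool thus carried transcripts of male gonads, and calls of members in gonads are given with and without it, while no-overlap counts, medians and neighbours are given with it only. In E13.5 female PGCs, IUHG library 3 had a lower summed FPKM than the other 5 and more genes at 1 TPM or over (16533 against 14524 to 15288). Calls of members in that group are given with and without it as well. Red blood cell genes summed to 76.2 TPM in E13.5 male control library 1 (2.02 or less in the other 5), to 293 TPM in E16.5 female IUHG library 3 (37.9 or less), and to 577 TPM in E16.5 male control library 1 (58.5 to 306).

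The members together made up a mean of 3757.5 ± 36.4 TPM (SD, n = 3) in control gonads and 4068 ± 49.2 TPM in IUHG gonads. In control PGCs the sum was 6707 ± 89.3 TPM at E12.5, from another preparation than that of gonads. It was 6105 ± 106 TPM in female and 4796 ± 123 TPM in male control PGCs at E13.5. At E16.5 it was 4873 ± 105 TPM in female and 5614 ± 149 TPM in male control PGCs. The sum thus differed less between groups than its make-up. *Idh2* was the most abundant member in control gonads, with 11.1% of the sum, followed by *Mdh2*. In control PGCs *Mdh2* came first at E12.5 (29.6% of the sum), in both sexes at E13.5 (15.6% in female and 28.1% in male) and in males at E16.5 (40.4%). In female PGCs at E16.5 *Sdhb* came first with 12.9%. *Me3*, a malic enzyme gene, had under 1 TPM in PGCs of every group but E16.5 males, where *D2hgdh* was the lowest at a mean of 1.09 TPM in controls. Transcripts of the cycle's own enzymes were thus present in every group. Those of a single enzyme of malate oxidation were the largest share in most germ cell pools.

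**Figure D1:**
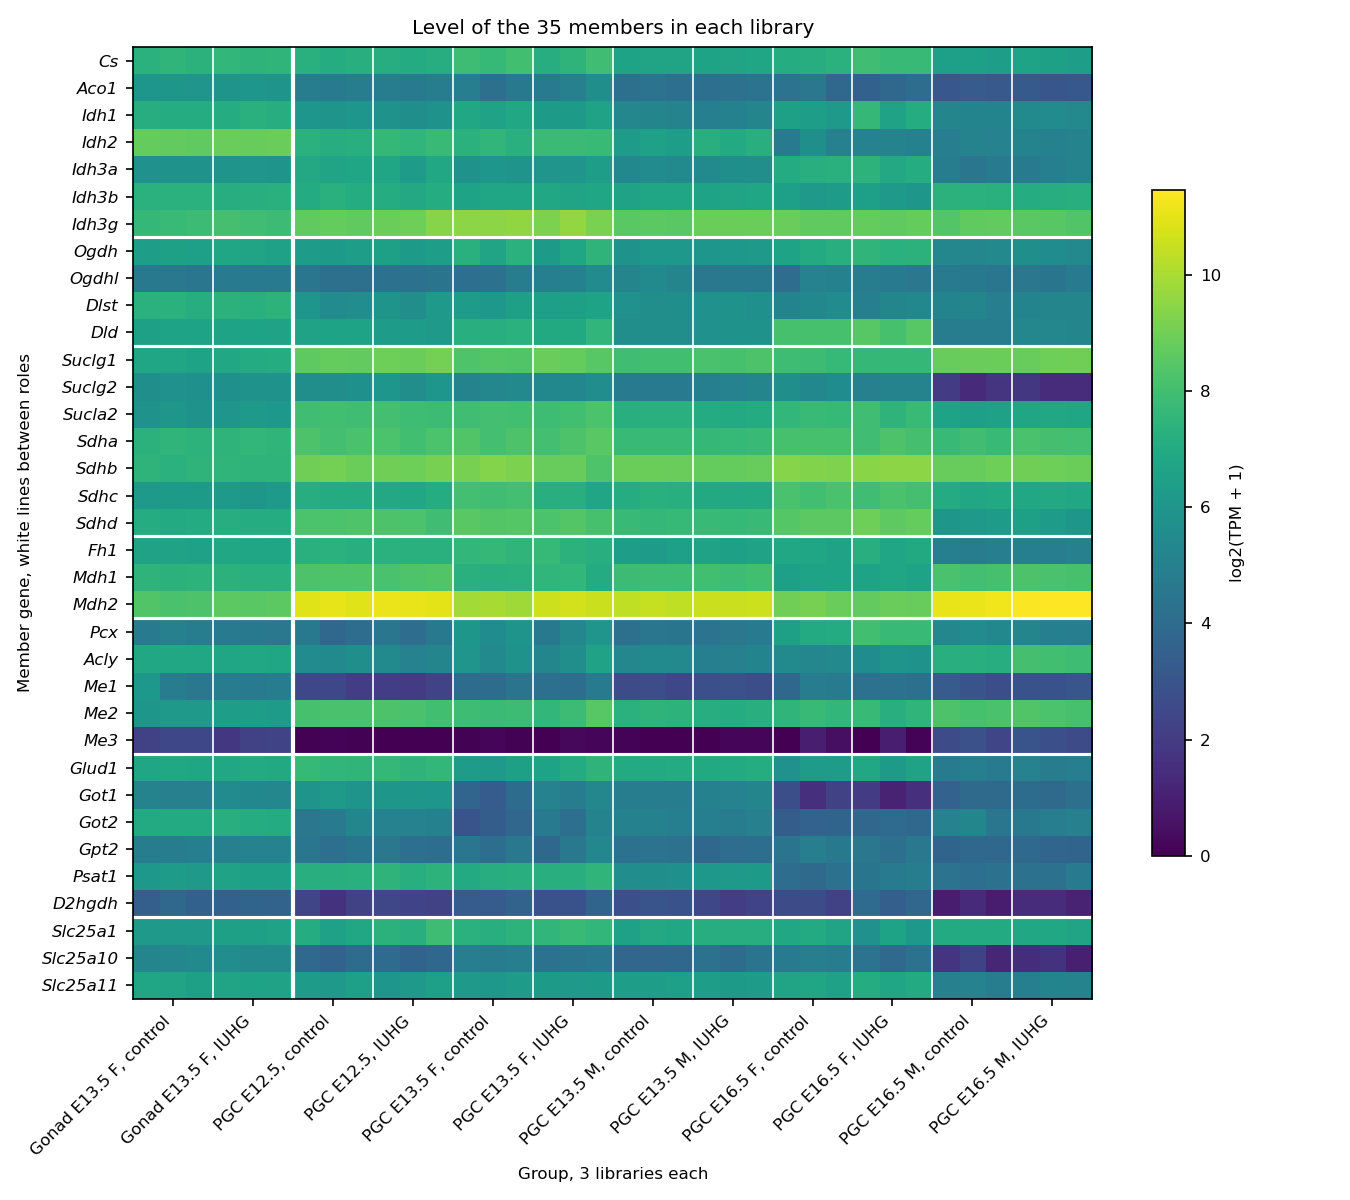
Level of each of the 35 members in all 36 libraries as log2(TPM + 1), ordered by role and by group. *Mdh2* is the highest in most PGC libraries and *Me3* is near 0 outside gonads and E16.5 male PGCs.

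Of the 35 members, 32 had a promoter in the RefSeq annotation of GRCm38.p6, taken as 250 bases before and 50 bases after the start, while *Sdhc*, *Me2* and *Idh3a* had none. These were searched on both strands for 4 sequences. The cyclic AMP response element TGACGTCA was present at any listed start in 2 of the 32 (*Ogdh* and *Mdh2*) and in 2.03% of all 27025 genes. The E-box CACGTG was in 4 (*Ogdh* at another start, *Ogdhl*, *Pcx* and *Slc25a1*) and in 8.09% of all genes. The ETS sequence CCGGAAGT was in 1 (*Dlst*) and in 4.31% of all genes. The GC box GGGCGG was in 24 and in 38.2% of all genes, again counted at any start. A match is a description of the sequence and not of use by a factor. The promoters of 4 members are printed with the element or E-box in capitals, namely *Mdh2* (chr5:135778399-135778698), *Ogdh* (chr11:6291409-6291708), *Slc25a1* (chr16:17928170-17928469, minus strand) and *Ogdhl* (chr14:32321769-32322068).

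Mdh2: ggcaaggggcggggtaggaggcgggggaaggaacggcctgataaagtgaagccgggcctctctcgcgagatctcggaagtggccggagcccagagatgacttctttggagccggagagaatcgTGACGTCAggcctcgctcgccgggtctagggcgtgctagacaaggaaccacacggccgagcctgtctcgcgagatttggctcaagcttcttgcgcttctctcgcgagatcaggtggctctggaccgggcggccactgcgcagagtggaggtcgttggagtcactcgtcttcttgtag

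Ogdh: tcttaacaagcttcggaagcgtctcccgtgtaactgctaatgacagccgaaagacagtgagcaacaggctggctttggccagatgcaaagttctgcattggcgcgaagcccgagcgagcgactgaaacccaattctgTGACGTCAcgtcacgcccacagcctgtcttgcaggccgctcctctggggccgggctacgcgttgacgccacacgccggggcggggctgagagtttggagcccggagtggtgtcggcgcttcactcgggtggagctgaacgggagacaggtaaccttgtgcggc

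Slc25a1: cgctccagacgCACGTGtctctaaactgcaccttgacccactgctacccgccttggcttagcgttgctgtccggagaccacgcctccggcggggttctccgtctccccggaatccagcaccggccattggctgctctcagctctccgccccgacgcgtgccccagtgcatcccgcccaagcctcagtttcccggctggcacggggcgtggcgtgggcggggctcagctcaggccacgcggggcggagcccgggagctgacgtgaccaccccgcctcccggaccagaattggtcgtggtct

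Ogdhl: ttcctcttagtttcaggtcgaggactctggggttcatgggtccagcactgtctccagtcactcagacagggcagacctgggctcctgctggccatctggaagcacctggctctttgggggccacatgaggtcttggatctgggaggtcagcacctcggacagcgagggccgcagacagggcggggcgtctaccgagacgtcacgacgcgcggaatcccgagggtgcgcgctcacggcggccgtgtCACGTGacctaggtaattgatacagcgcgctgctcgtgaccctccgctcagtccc

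The first question was which members differ between IUHG and control fetuses. In gonads, 35 members were tested. Of these, 3 rose in IUHG (1.43% of all 18150 genes tested did) and 0 fell (1.05% of all, limma), with 15 at an unadjusted p under 0.05. In bulk samples a different share of the cells that carry a transcript and a different level per cell cannot be told apart. The 3 were *Mdh2*, *Slc25a1* and *Psat1*, the last chosen after its values were seen. Without control library 1, the one with male transcripts, *Mdh2* and *Slc25a1* rose and *Psat1* did not pass. Only *Psat1* passed without control library 2 and only *Slc25a1* without control library 3. Without IUHG library 1 *Suclg1* and *Slc25a1* passed, and without IUHG library 2 or 3 there were 0. The libraries did not overlap for 14 members with IUHG higher (14.5% of all genes) and 2 with IUHG lower (11.3%). The median log2 fold change was 0.12 over members and 0.01 over all genes tested. With no filter on low TPM 0 passed in limma. In the same gonads all 6 germ cell genes were higher in IUHG, 4 of them without overlap and with a median of 0.50, while red blood cell genes (5 of 6) and *Col1a1* fell, so a different make-up of cells is not excluded. The median of members in gonads was thus slightly above 0, and the 3 calls were each lost without some single libraries.

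At E12.5, 34 members were tested in PGCs, *Me3* being too low. In limma 0 rose (0.879% of all genes) and 0 fell (0.697%), with 6 at an unadjusted p under 0.05. Libraries did not overlap for 4 members with IUHG higher (13.3% of all genes) and 3 with IUHG lower (9.12%). The median was 0.00 over members and 0.04 over all genes. Among markers, Sertoli genes summed to 12.6, 14.7 and 13.3 TPM in control and 5.83, 1.85 and 0.158 TPM in IUHG libraries. They were lower without overlap in 3 of 3 tested, with 0 that passed in limma, while 1 of 4 Y-linked and 1 of 6 germ cell genes fell. A different make-up of these pools was not tested. In female PGCs at E13.5, 2 of 34 rose (1.06% of all), namely *Mdh2* and *Got1*. Only *Sdhc* fell (1.99% of all), and 9 had an unadjusted p under 0.05. In the same libraries 2 of 3 meiotic genes fell, as DEGs, so a different make-up or state of the cells is not excluded here. Without IUHG library 3, which stood apart, 9 members passed, namely *Suclg1*, *Mdh2*, *Got1* and *Got2* as higher and *Cs*, *Idh1*, *Sdhb*, *Sdhc* and *Pcx* as lower. Without any 1 of the other 5 libraries 0 passed. In this group 9 members had higher IUHG libraries without overlap (19.8% of all genes) and 4 had lower ones (13.2%). The median was 0.11 over members and 0.14 over all genes, and after median-of-ratios scaling these were -0.05 and 0.01. With no filter on low TPM 0 passed in limma, and with all PGC groups in one fit 12 did. The number of members that differed in E13.5 female PGCs therefore depended on which libraries and which model were used.

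With each comparison on its own groups, male PGCs at E13.5 had the most members that differed. With all PGC groups in one fit they had 3, against 12 in E13.5 and 9 in E16.5 females. Shares of all genes are given for the separate fits only, so the counts of the single fit have none beside them. Members chosen after their values were seen have no single-fit result given in E13.5 males, and most of them cannot have passed in it. In E13.5 males 11 of 34 rose (15.2% of all genes) and 6 fell (18.0% of all), with 20 at an unadjusted p under 0.05. With 1 library left out, 14 to 17 passed, and 12 of the 17 passed in all 6 such fits. Of the other 5, *Fh1* is described below, and 4 chosen after their values were seen were *Dld* (lost without control library 2 or 3 or IUHG library 2 or 3, adjusted p up to 0.10), *Suclg1* (IUHG library 3, 0.063), *Got1* (control library 3 or IUHG library 3, up to 0.070) and *Sucla2* (control library 2 or 3 or IUHG library 2, up to 0.064). In the fit of this comparison alone, a larger share of members than of all genes thus rose, and about the same share fell. The difference in shares was not tested. In the same libraries interstitial (4 of 4 tested) and male germ cell genes (2 of 2) fell and *Stra8* rose. Of the 6 germ cell genes 3 fell and 1 rose, and 2 of 4 Y-linked genes fell. The make-up or state of the cells may thus differ here, which was not tested. For 13 members the IUHG libraries were higher without overlap (21.8% of all genes) and for 8 they were lower (25.4%). The median was 0.05 over members and -0.02 over all genes.

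In E16.5 female PGCs, 3 of 34 rose (2.56% of all genes), namely *Pcx*, *Cs* and, chosen after its values were seen, *D2hgdh*. In limma 0 fell (3.08% of all), and 13 had an unadjusted p under 0.05. These pools also differed in germ cell markers and in *Col1a1*, as given above, so a different make-up of cells is not excluded. With no filter on low TPM 0 passed in limma, and with all PGC groups in one fit there were 9. Without IUHG library 2 there were 6 members that passed, and without control library 2 or IUHG library 3 there was 1, *Pcx*. Libraries did not overlap for 10 members with IUHG higher (14.9% of all) and 5 with IUHG lower (14.1%). The median was -0.03 over members and 0.04 over all genes. In E16.5 male PGCs, 3 of 35 rose (3.38% of all genes), namely *Acly*, *Mdh2* and, chosen after its values were seen, *Dld*. In limma 0 fell (2.54%), with 10 at an unadjusted p under 0.05. Sertoli genes were lower in IUHG without overlap in the same libraries (4 of 4, with 1 that fell), and red blood cell genes were lower in 5 of 5 tested, with overlap and 0 that passed in limma (3 at an unadjusted p under 0.05). The make-up of cells may thus differ here as well. Only *Acly* passed without control library 2 or without IUHG library 2. For 7 members IUHG libraries were higher without overlap (17.8% of all) and for 3 lower (12.0%). The median was 0.08 over members and 0.04 over all genes.

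No member was a DEG in any of the 6 IUHG comparisons, at the thresholds on both p and fold change in limma. Of all genes tested, 0.612% were DEGs in gonads, 0.247% in E12.5 PGCs, 0.514% in E13.5 females, 3.92% in E13.5 males, 0.736% in E16.5 females and 0.201% in E16.5 males. *Mdh2* rose in 4 of the 6 comparisons, which shared no libraries with each other, while in E16.5 females it was lower in IUHG without overlap and not past the threshold, and no other member rose or fell in more than 2.

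**Figure D2:**
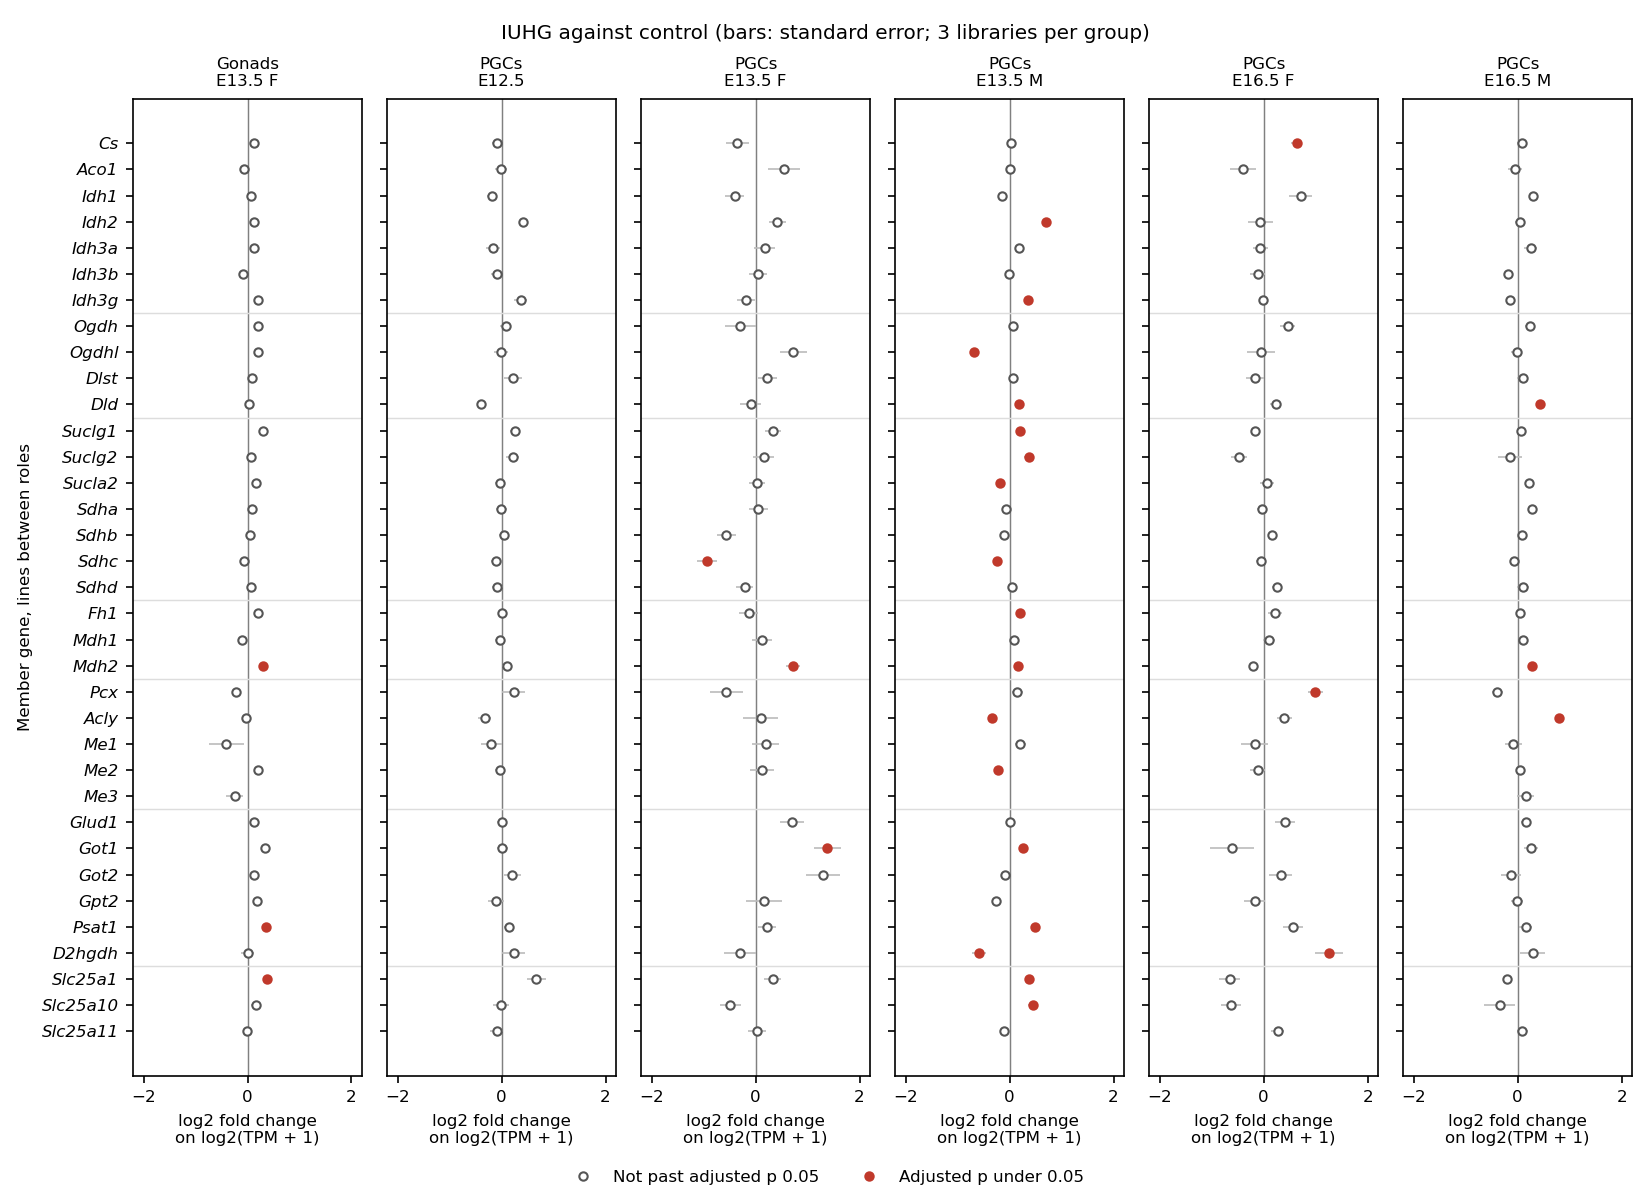
Log2 fold change, IUHG against control, of each member on the log2(TPM + 1) scale in the 6 comparisons, with filled points for an adjusted p under 0.05. The largest among those that passed is *Got1* in E13.5 female PGCs at 1.38.

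Citrate and isocitrate steps were covered by 7 members. *Idh2* (ENSMUSG00000030541.17, chromosome 7, 79744594 to 79765140), for the mitochondrial NADP-dependent isocitrate dehydrogenase that makes alpha-ketoglutarate, was looked at in every IUHG comparison. In E13.5 male PGCs it was at 80.2, 93.4 and 85.7 TPM in control and 144, 129 and 150.4 TPM in IUHG libraries. All 3 IUHG libraries lay above the controls, and it rose by a log2 value of 0.70 (standard error 0.0740, limma adjusted p = 1.3e-04). In E12.5 PGCs it was at 158, 138 and 146 TPM in control and 196, 187 and 211 TPM in IUHG libraries. These did not overlap either, but the change of 0.42 (standard error 0.0954, limma adjusted p = 0.067) was not past the threshold. In E13.5 female PGCs it was at 157, 187 and 155 TPM in control and 224, 223 and 217 TPM in IUHG libraries, again apart and not past the threshold at 0.42 (standard error 0.162, limma adjusted p = 0.17), though past it with all PGC groups in one fit (adjusted p = 0.033). In gonads (ENSMUSG00000030541.16, chromosome 7, 80094846 to 80115392) it was at 432, 422 and 399.5 TPM in control and 456, 447 and 457 TPM in IUHG libraries, a difference of 0.12 (standard error 0.0437, limma adjusted p = 0.19) without overlap, or 0.14 without control library 1. In E16.5 females it had 25.7, 51.0 and 30.7 TPM in control and 32.6, 34.0 and 32.0 TPM in IUHG libraries. E16.5 males had 29.3, 34.4 and 33.4 and 34.1, 31.9 and 34.1 TPM. Control and IUHG libraries overlapped in both, with differences of -0.06 (limma adjusted p = 0.90) in females, or -0.26, 0.22 and -0.14 without control library 1, 2 and 3, and 0.05 (limma adjusted p = 0.80) in males, or -0.0222 to 0.0894 without any 1 library, negative only without control library 1. *Idh2* was thus higher in IUHG up to E13.5, passing in E13.5 males, and a difference between the sexes in this effect was not shown, at 0.29 (limma adjusted p = 0.26).

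Between E13.5 and E16.5 *Idh2* fell in every PGC group. In control females, with the libraries of both stages far apart, it fell, with a change of -2.24 (standard error 0.222, limma adjusted p = 2.8e-05), and in IUHG females one of -2.72 (standard error 0.176, limma adjusted p = 9.3e-06). By E16.5 it was therefore low in germ cells of both sexes. Gonads, where it was the most abundant member, were from E13.5 only. *Idh3g* (ENSMUSG00000002010.18, chromosome X, 72822569 to 72830503), for a regulatory subunit of the NAD-dependent enzyme, was at 364, 381 and 365 TPM in control and 469, 471 and 476 TPM in IUHG male PGCs at E13.5. Every IUHG library was above every control, and it rose by 0.35 (standard error 0.0396, limma adjusted p = 1.8e-04). With all PGC groups in one fit the adjusted p was 0.056. *Idh3a* (ENSMUSG00000032279.12, chromosome 9, 54493618 to 54511945), for the catalytic subunit of the same enzyme, was at 58.8, 64.5 and 60.3 TPM in female control PGCs at E13.5 and 133, 149.8 and 155 TPM at E16.5. In IUHG females it was at 62.5, 62.9 and 83.7 TPM at E13.5 and 168, 120.3 and 135 TPM at E16.5. It rose without overlap in both, by 1.24 (standard error 0.114, limma adjusted p = 1.8e-05) in control and 1.01 (standard error 0.215, limma adjusted p = 0.0051) in IUHG. From 119, 102 and 108 TPM at E12.5 it was at 39.3, 44.9 and 42.1 TPM in control male PGCs at E13.5. All male libraries lay below those of E12.5, with a change of -1.36 (standard error 0.0830, limma adjusted p = 5.4e-07). Control females of E13.5 also lay below E12.5 without overlap. From E13.5 to E16.5 transcripts of the catalytic subunit thus went up in females while *Idh2* went down.

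*Idh1* (ENSMUSG00000025950.17, chromosome 1, 65197775 to 65225638), for the cytosolic NADP-dependent enzyme, was at 112, 96.6 and 118 TPM in female and 38.3, 36.2 and 33.9 TPM in male control PGCs at E13.5. Males lay below females without overlap, at -1.56 (standard error 0.102, limma adjusted p = 2.2e-06). *Cs* (ENSMUSG00000005683.9, chromosome 10, 128173603 to 128198348), for citrate synthase, was at 136, 142 and 158 TPM in control and 244, 219.8 and 216 TPM in IUHG female PGCs at E16.5. Every IUHG library was higher, and it rose by 0.64 (standard error 0.102, limma adjusted p = 0.010). The call was lost without control library 2 (adjusted p = 0.065) and without IUHG library 3 (adjusted p = 0.058), and with no filter (adjusted p = 0.056). *Aco1*, for the cytosolic aconitase, and *Idh3b*, for the other regulatory subunit, did not pass in any IUHG comparison.

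The complex that turns alpha-ketoglutarate into succinyl-CoA was covered by 4 members. *Ogdh* (ENSMUSG00000020456.18, chromosome 11, 6241633 to 6306642), for its first subunit, was also followed in every IUHG comparison and passed in none. In gonads (ENSMUSG00000020456.17, chromosome 11, 6291633 to 6356642) it was at 82.3, 91.7 and 88.8 TPM in control and 108, 102 and 93.2 TPM in IUHG libraries. The IUHG libraries were higher, with a difference of 0.20 (limma adjusted p = 0.15), or 0.16 without control library 1. In E12.5 PGCs it was at 78.2, 74.2 and 84.7 TPM in control and 91.8, 75.5 and 84.1 TPM in IUHG libraries, which overlapped, with a difference of 0.08 (limma adjusted p = 0.75). It ranged from 0.0135 without IUHG library 1 to 0.1524 without IUHG library 2, with 0.04 without control library 2 and 0.13 without control library 3. E13.5 female PGCs had 155, 104 and 157 TPM in control and 74.2, 107 and 172 TPM in IUHG libraries. The spread of the IUHG libraries covered that of the controls, with a difference of -0.29 (limma adjusted p = 0.57), or -0.61 without IUHG library 3, -0.49 without control library 2, -0.19 without control library 3 and near 0 without IUHG library 1 (-0.0048). E13.5 male PGCs had 56.6, 67.8 and 68.4 TPM in control and 63.6, 67.6 and 70.3 TPM in IUHG libraries. They overlapped, with a difference of 0.07 (limma adjusted p = 0.56) that changed sign without control library 1 (-0.02). It was 0.11 without control library 2, 0.11 without control library 3, 0.10 without IUHG library 1 and 0.03 without IUHG library 3. At E16.5 it was at 99.96, 126 and 143 TPM in control and 181, 159 and 166 TPM in IUHG female PGCs. Females were higher in IUHG without overlap but not past the threshold, at 0.46 (limma adjusted p = 0.086). Male PGCs at E16.5 had 38.0, 38.1 and 41.6 TPM in control and 51.7, 46.6 and 41.5 TPM in IUHG libraries, which overlapped, with a difference of 0.24 (limma adjusted p = 0.18).

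*Ogdhl* (ENSMUSG00000021913.9, chromosome 14, 32043976 to 32070108), for a paralog of that subunit, was at 36.7, 42.6 and 36.2 TPM in control and 22.9, 24.0 and 23.7 TPM in IUHG male PGCs at E13.5. All IUHG libraries lay below the controls, and it fell, with a change of -0.68 (standard error 0.0784, limma adjusted p = 2.0e-04). Control male libraries were above those of E12.5, at 21.8, 18.1 and 17.8 TPM, and it rose by 0.97 (standard error 0.111, limma adjusted p = 3.4e-05). They were also above female controls of E13.5, at 17.3, 19.1 and 26.8 TPM, by 0.86 (standard error 0.161, limma adjusted p = 0.0013). *Ogdhl* was thus high in control males at E13.5 and lower in IUHG males. *Dld* (ENSMUSG00000020664.11, chromosome 12, 31381276 to 31401452), for the dehydrogenase subunit that this complex shares with pyruvate dehydrogenase, was at 151, 143 and 160.3 TPM in female and 50.3, 50.1 and 49.4 TPM in male control PGCs at E13.5. At E16.5 it was at 278, 283 and 276 TPM in female and 27.4, 27.7 and 28.1 TPM in male controls. Females rose without overlap, by 0.88 (standard error 0.0915, limma adjusted p = 3.9e-05) in control and 1.20 (standard error 0.216, limma adjusted p = 0.0021) in IUHG, where it went from 123, 124 and 186 to 354, 276 and 359 TPM. Males lay below females, at -1.58 (standard error 0.0806, limma adjusted p = 5.5e-07) for E13.5 and -3.28 (standard error 0.0739, limma adjusted p = 1.2e-07) for E16.5, the latter among the widest gaps between the sexes. In IUHG male PGCs at E16.5, chosen after its values were seen, *Dld* was at 38.9, 38.0 and 35.9 TPM. These libraries were all above the controls, and it rose by 0.43 (standard error 0.0810, limma adjusted p = 0.022). The call was lost without control library 2 or 3 or IUHG library 1 or 2, with adjusted p up to 0.12. *Dlst*, for the succinyl transfer subunit, passed in no IUHG comparison.

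Succinyl-CoA synthetase and succinate dehydrogenase, the latter also complex II of the respiratory chain, were covered by 7 members. *Sdhc* (ENSMUSG00000058076.13, chromosome 1, 170954734 to 170978172), for a membrane anchor of succinate dehydrogenase, was at 258, 245 and 263 TPM in control and 151, 151 and 105 TPM in IUHG female PGCs at E13.5. All IUHG libraries lay below the controls, and it fell, with a change of -0.93 (standard error 0.191, limma adjusted p = 0.035). Without IUHG library 3 the change was -0.76 (adjusted p = 0.0031), and without any 1 of the other 5 libraries the adjusted p was 0.058 to 0.20. With no filter it was 0.13. In E13.5 male PGCs, chosen after its values were seen, *Sdhc* also fell, from 136, 153 and 148 to 125, 119 and 123 TPM, with a change of -0.25 (limma adjusted p = 0.0086). *Sdhc* was thus lower in IUHG in both sexes at E13.5.

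*Suclg2* (ENSMUSG00000061838.8, chromosome 6, 95449990 to 95695781), for the GTP-specific subunit of the synthetase, was at 25.0, 26.6 and 24.6 TPM at E13.5 and 3.11, 1.67 and 2.30 TPM at E16.5 in control male PGCs. In IUHG males it was at 30.1, 32.8 and 36.3 TPM at E13.5 and 2.59, 1.74 and 1.75 TPM at E16.5. It fell in both without overlap, with changes of -3.00 (standard error 0.160, limma adjusted p = 5.2e-07) in control and -3.50 (standard error 0.139, limma adjusted p = 1.4e-07) in IUHG. Female controls at E16.5 had 51.3, 40.3 and 46.1 TPM, so males lay below them, at -3.82 (standard error 0.199, limma adjusted p = 2.1e-06). The partner *Sucla2*, for the ATP-specific subunit, and the shared subunit *Suclg1* stayed higher, with 99.1, 87.9 and 94.6 TPM and 442, 463 and 469 TPM in the same E16.5 male controls. Male germ cells at E16.5 thus had little transcript for the GTP-specific subunit. *Sdhb*, for the iron-sulfur subunit, was at 547, 639.5 and 587 TPM in control and 451, 443 and 315 TPM in IUHG female PGCs at E13.5, apart but not past the threshold. *Sdha*, for the flavoprotein, and *Sdhd*, for the other anchor, passed in no IUHG comparison.

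Fumarate and malate were covered by 3 members. *Mdh2* (ENSMUSG00000019179.11, chromosome 5, 135807334 to 135819245), for mitochondrial malate dehydrogenase, was at 925, 1001 and 921 TPM in control and 1548, 1646 and 1496 TPM in IUHG female PGCs at E13.5. All IUHG libraries were above all controls, and it rose by 0.72 (standard error 0.141, limma adjusted p = 0.031). After median-of-ratios scaling the change was 0.56 (adjusted p = 0.21) and in FPKM 0.55 (adjusted p = 0.22), and with no filter the adjusted p was 0.13. Without IUHG library 3 it was 0.75 (adjusted p = 0.0015), and without any other 1 library the adjusted p was 0.069 to 0.21. In gonads (ENSMUSG00000019179.10, chromosome 5, 135778480 to 135790398) it was at 322, 289 and 303 TPM in control and 385, 363 and 377 TPM in IUHG libraries. Again all IUHG libraries were higher, and it rose by 0.30 (standard error 0.0511, limma adjusted p = 0.029). Without control library 1 it rose by 0.34 (adjusted p = 0.023), and without any 1 of the other 5 the adjusted p was 0.077 to 0.096. With no filter it was 0.11.

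In E16.5 male PGCs *Mdh2* was at 2174, 2252 and 2377 TPM in control and 2662, 2738 and 2822 TPM in IUHG libraries. The groups did not overlap, and it rose by 0.27 (standard error 0.0479, limma adjusted p = 0.018). The call was lost without control library 2 (adjusted p = 0.076) or IUHG library 2 (adjusted p = 0.084), and with no filter (adjusted p = 0.093). Female PGCs at E16.5 had 498, 551 and 465 TPM in control and 413, 458 and 449.6 TPM in IUHG libraries. Here every IUHG library was below the controls, not past the threshold at -0.20 (limma adjusted p = 0.22), and control males differed from control females by 2.17 (standard error 0.0709, limma adjusted p = 3.2e-07). In E13.5 males, chosen after its values were seen, it went from 1331, 1402 and 1316 to 1484, 1495 and 1529 TPM, a rise of 0.16 (limma adjusted p = 0.013) without overlap. In the separate fits *Mdh2* thus rose in gonads and in PGCs of 3 groups, and it lay lower in IUHG in E16.5 female PGCs. *Fh1*, for fumarate hydratase, rose in E13.5 male PGCs from 81.4, 79.8 and 87.9 to 96.7, 91.6 and 96.8 TPM, chosen after its values were seen, by 0.19 (limma adjusted p = 0.028). It did not pass without control library 1 or 2 or IUHG library 1 or 3, with adjusted p up to 0.089. *Mdh1*, for the cytosolic malate dehydrogenase, passed in no IUHG comparison.

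**Figure D3:**
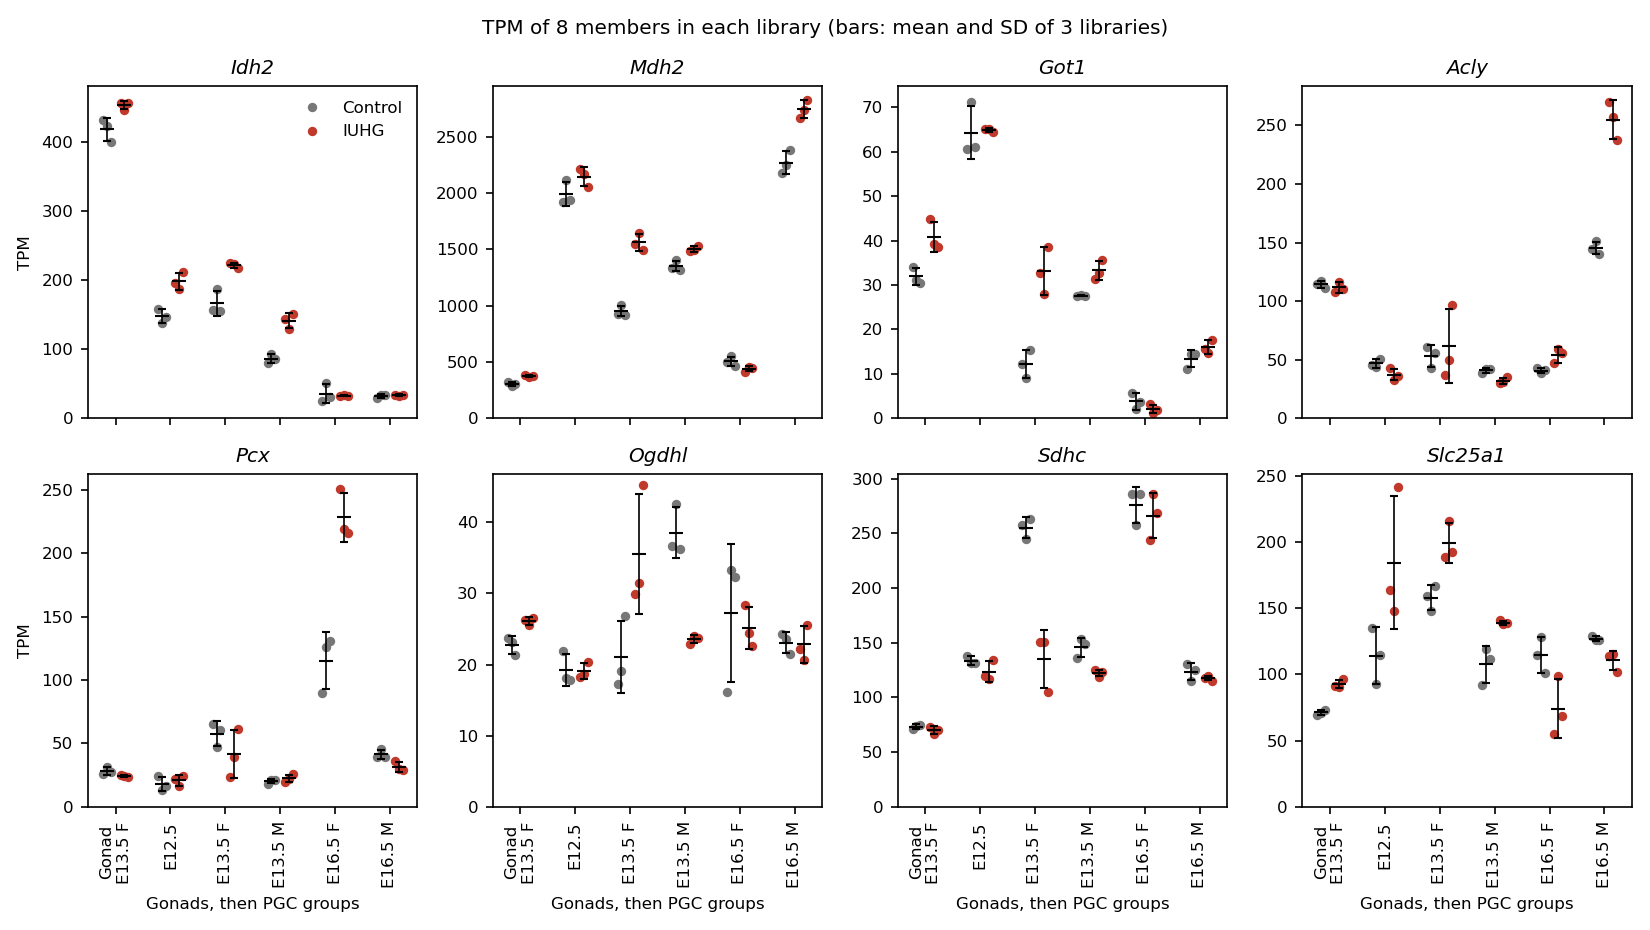
TPM of 8 members in each library of the 12 groups, with points for libraries and bars for group means. *Acly* is highest in E16.5 male PGCs and *Pcx* in E16.5 female PGCs, both above their controls in IUHG.

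Filling of the cycle and export from it were covered by 5 members. *Acly* (ENSMUSG00000020917.18, chromosome 11, 100367179 to 100418826), for ATP citrate lyase, which makes cytosolic acetyl-CoA, was at 145, 151 and 140.5 TPM in control and 270.3, 257 and 237 TPM in IUHG male PGCs at E16.5. All IUHG libraries were far above the controls, and it rose by 0.80 (standard error 0.0670, limma adjusted p = 9.0e-04), a call kept in all 6 fits with 1 library left out. In E13.5 males it was at 38.5, 42.4 and 41.8 TPM in control and 29.8, 31.1 and 35.0 TPM in IUHG libraries. There IUHG libraries were below the controls, and it fell, with a change of -0.35 (standard error 0.0774, limma adjusted p = 0.0077), which did not pass with all PGC groups in one fit (adjusted p = 0.35). Over these stages it rose by 1.81 (standard error 0.0654, limma adjusted p = 6.7e-08) in control and 2.96 (standard error 0.0782, limma adjusted p = 2.2e-08) in IUHG males. Female controls at E16.5 had 42.7, 38.7 and 40.8 TPM, so males lay above them by 1.81 (standard error 0.0843, limma adjusted p = 1.3e-06). *Acly* was thus lower in IUHG males at E13.5 and higher at E16.5.

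*Pcx* (ENSMUSG00000024892.18, chromosome 19, 4560500 to 4671780), for pyruvate carboxylase, which makes oxaloacetate from pyruvate, was at 89.3, 126 and 131 TPM in control and 250.4, 219 and 216 TPM in IUHG female PGCs at E16.5. All IUHG libraries were above the controls, and it rose by 1.00 (standard error 0.150, limma adjusted p = 0.0080), with a fold change of 0.997 before rounding that was just short of a DEG. With no filter the adjusted p was 0.075. At E13.5 it was at 65.4, 46.9 and 60.7 TPM in control and 23.5, 38.9 and 61.3 TPM in IUHG females. From E13.5 to E16.5 it rose by 0.98 (standard error 0.179, limma adjusted p = 0.0013) in control and 2.54 (standard error 0.313, limma adjusted p = 2.7e-04) in IUHG females, without overlap in either. Control females at E13.5 were above the unsexed pools of E12.5, at 23.9, 13.2 and 16.0 TPM, by 1.68 (standard error 0.208, limma adjusted p = 9.3e-05). In control males it went from 18.0, 21.3 and 20.7 TPM at E13.5 to 39.0, 45.4 and 39.3 TPM at E16.5, a rise of 1.01 (standard error 0.0977, limma adjusted p = 2.0e-05) without overlap. Transcripts of the enzyme that refills the cycle from pyruvate thus rose with stage in both sexes.

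Malic enzymes make pyruvate from malate. *Me1* (ENSMUSG00000032418.16, chromosome 9, 86463424 to 86578006), for the cytosolic form, was at 4.60, 4.58 and 3.24 TPM in E12.5 and 15.8, 15.8 and 20.5 TPM in E13.5 female control PGCs. It rose without overlap by 1.84 (standard error 0.194, limma adjusted p = 3.3e-05), and E13.5 male controls, at 5.13, 5.50 and 4.60 TPM, were below females, at -1.59 (standard error 0.155, limma adjusted p = 2.3e-05). In gonads *Me1* was at 68.9, 28.2 and 22.7 TPM in control libraries, the first of which had male transcripts, and 27.0, 25.5 and 27.1 TPM in IUHG libraries. *Me2* (ENSMUSG00000024556.5, chromosome 18, 73902974 to 73948509), for a mitochondrial form, went from 159, 175 and 167 TPM at E13.5 to 306, 275 and 291 TPM at E16.5 in control males and from 140.2, 138 and 149 to 327, 295 and 277 TPM in IUHG males. It rose without overlap in both, by 0.79 (limma adjusted p = 4.8e-06) in control and 1.07 (standard error 0.0688, limma adjusted p = 2.0e-06) in IUHG. *Me3* (ENSMUSG00000030621.18, chromosome 7, 89281911 to 89503567), for another mitochondrial form, was at 0.0888, 0 and 0 TPM at E13.5 and 5.43, 6.08 and 4.31 TPM at E16.5 in control males. IUHG males had 0, 0.1199 and 0.140 and 6.88, 5.93 and 5.07 TPM at these stages. It rose without overlap by 2.60 (standard error 0.159, limma adjusted p = 1.2e-06) in control and 2.67 (standard error 0.153, limma adjusted p = 1.0e-06) in IUHG males. Female controls at E16.5 had 0, 0.956 and 0.373 TPM, and males were above them by 2.16 (standard error 0.292, limma adjusted p = 3.1e-04). *Me3* was thus over 1 TPM in PGCs of E16.5 males only.

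Enzymes that link alpha-ketoglutarate with glutamate or with 2-hydroxyglutarate were covered by 6 members. *Got1* (ENSMUSG00000025190.14, chromosome 19, 43488191 to 43513044), for the cytosolic aspartate aminotransferase, was at 12.3, 8.97 and 15.4 TPM in control and 32.7, 27.9 and 38.6 TPM in IUHG female PGCs at E13.5. All IUHG libraries were above the controls, and it rose by 1.38 (standard error 0.262, limma adjusted p = 0.027). Without IUHG library 3 it rose by 1.27 (adjusted p = 0.0092), and without any other 1 library the adjusted p was 0.051 to 0.16. With no filter it was 0.11. Unsexed pools of E12.5 had 60.7, 71.3 and 61.0 TPM, and control females lay below them without overlap, at -2.33 (standard error 0.180, limma adjusted p = 4.4e-06). In control males at E13.5 it was at 27.6, 27.7 and 27.6 TPM, below E12.5 at -1.19 (standard error 0.0871, limma adjusted p = 1.6e-06) and above females by 1.14 (standard error 0.174, limma adjusted p = 3.7e-04). At E16.5 it was at 5.72, 2.00 and 3.77 TPM in control and 3.11, 1.22 and 1.97 TPM in IUHG females. It fell with stage, with changes of -1.50 (standard error 0.329, limma adjusted p = 0.0037) in control and -3.49 (standard error 0.330, limma adjusted p = 6.8e-05) in IUHG females. IUHG female PGCs at E13.5 were thus between the levels of E12.5 and of control females.

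*Got2* (ENSMUSG00000031672.9, chromosome 8, 96590762 to 96615175), for the mitochondrial form, was at 22.6, 26.2 and 37.2 TPM at E12.5 and 6.96, 9.54 and 12.6 TPM in female controls at E13.5. It fell without overlap, at -1.47 (standard error 0.234, limma adjusted p = 4.7e-04), and male controls at E13.5, at 32.2, 32.3 and 30.3 TPM, were above females by 1.64 (standard error 0.184, limma adjusted p = 5.7e-05). In IUHG females it was at 25.3, 17.2 and 34.4 TPM, above all controls but not past the threshold. A processed copy of this gene, *Got2-ps1*, had a mean of 5.16 TPM in control and 7.13 TPM in IUHG gonads and at most 0.881 TPM in PGC groups. How reads were shared between the copy and *Got2* was not tested. *Glud1* (ENSMUSG00000021794.17, chromosome 14, 34032684 to 34067222), for glutamate dehydrogenase, was at 201, 184 and 179 TPM at E12.5 and 81.0, 69.5 and 91.8 TPM in female controls at E13.5, a change of -1.22 (standard error 0.112, limma adjusted p = 1.3e-05) without overlap. In control males it went from 129, 128 and 133 TPM at E13.5 to 24.9, 29.0 and 26.1 TPM at E16.5. IUHG males went from 125, 129.6 and 137 to 33.0, 28.0 and 29.1 TPM. Without overlap it fell, at -2.24 (standard error 0.0738, limma adjusted p = 4.4e-08) in control and -2.08 (standard error 0.0774, limma adjusted p = 1.0e-07) in IUHG males. *Glud1* was thus lowest in E16.5 males.

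*Psat1* (ENSMUSG00000024640.10, chromosome 19, 15882042 to 15902423), for the aminotransferase of serine synthesis that releases alpha-ketoglutarate, was at 129, 139 and 144 TPM at E13.5 and 16.0, 14.7 and 18.7 TPM at E16.5 in control females. In IUHG females it was at 151, 148 and 183 TPM at E13.5 and 20.8, 25.9 and 27.9 TPM at E16.5. Without overlap it fell, with a change of -2.99 (standard error 0.139, limma adjusted p = 3.6e-07) in control and -2.65 (standard error 0.211, limma adjusted p = 3.0e-05) in IUHG. Control males at E13.5, at 48.3, 51.5 and 52.2 TPM, were below E12.5 PGCs, at 145, 145 and 156 TPM, with a change of -1.54 (standard error 0.0677, limma adjusted p = 1.2e-07). In gonads *Psat1* was at 69.0, 77.4 and 69.8 TPM in control and 97.4, 89.9 and 90.5 TPM in IUHG libraries. IUHG libraries were all higher, and it rose by 0.36 (standard error 0.0628, limma adjusted p = 0.031), but it passed only without control library 2 among the 6 fits with 1 library left out, with adjusted p up to 0.10. In E13.5 males, chosen after its values were seen, it rose to 69.2, 69.8 and 74.2 TPM, by 0.48 (limma adjusted p = 3.0e-04), without overlap. *Psat1* thus rose in IUHG gonads and E13.5 males in the separate fits, while its call in gonads rested on single libraries. With all PGC groups in one fit 3 members passed in E13.5 males, and the result of *Psat1* in that fit is not given.

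*D2hgdh* (ENSMUSG00000073609.10, chromosome 1, 93752962 to 93780070), for the enzyme that oxidizes D-2-hydroxyglutarate to alpha-ketoglutarate, was at 4.22, 2.198 and 3.80 TPM at E12.5. At E13.5 it was at 9.23, 9.21 and 11.6 TPM in female and 5.93, 6.98 and 6.36 TPM in male controls. All of these lay above E12.5, rises of 1.35 (standard error 0.231, limma adjusted p = 7.5e-04) in females and 0.78 (standard error 0.201, limma adjusted p = 0.0066) in males. In E16.5 females it was at 5.21, 5.25 and 3.70 TPM in control and 15.2, 10.1 and 12.9 TPM in IUHG libraries. The 3 IUHG libraries were higher, a rise of 1.26 (standard error 0.273, limma adjusted p = 0.032) that passed only without IUHG library 2 among the 6 fits with 1 library left out (adjusted p up to 0.15). In E13.5 males, chosen after its values were seen, it fell to 4.54, 3.30 and 3.98 TPM, a change of -0.59 (limma adjusted p = 0.0078). *Gpt2*, for the mitochondrial alanine aminotransferase, passed in no IUHG comparison.

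Carriers were covered by 3 members. *Slc25a1* (ENSMUSG00000003528.15, chromosome 16, 17925223 to 17928219 in gonads), for the carrier that exports citrate, was at 69.5, 71.2 and 73.1 TPM in control and 91.0, 90.6 and 96.4 TPM in IUHG gonads. All IUHG libraries were above the controls, and it rose by 0.37 (standard error 0.0512, limma adjusted p = 0.014). Without control library 1 it rose by 0.36 (adjusted p = 0.029), while the call was lost without control library 2 or IUHG library 2 (adjusted p = 0.055 for both) or IUHG library 3 (0.053), and with no filter (0.068). In E13.5 male PGCs (ENSMUSG00000003528.16, chromosome 16, 17743087 to 17746083), chosen after its values were seen, it rose from 92.2, 119 and 112 to 141, 138 and 139 TPM, by 0.38 (limma adjusted p = 0.0076). *Slc25a10* (ENSMUSG00000025792.10, chromosome 11, 120382666 to 120390013), for the dicarboxylate carrier, was at 12.6, 12.9 and 13.49 TPM at E13.5 and 2.26, 3.81 and 1.36 TPM at E16.5 in control males. In IUHG males it was at 18.8, 15.6 and 20.0 TPM at E13.5 and 1.85, 2.19 and 1.00 TPM at E16.5. Its fall, without overlap, was -2.07 (standard error 0.234, limma adjusted p = 5.1e-05) in control and -2.86 (standard error 0.190, limma adjusted p = 2.4e-06) in IUHG. Female controls at E16.5 had 25.0, 28.5 and 27.5 TPM, above all male libraries, a sex difference of -3.07 (standard error 0.262, limma adjusted p = 2.5e-05). *Slc25a11*, for the carrier that exchanges alpha-ketoglutarate for malate, passed in no IUHG comparison. In control males at E16.5 *Slc25a1* was at 129, 126 and 126 TPM, so transcripts of the dicarboxylate carrier were low there and those of the citrate carrier were not.

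The next question was how members change with stage and differ with sex. Pools of E12.5 name no sex in their titles and held male cells, so stage and sex are not separated in comparisons with them. The methods describe telling female from male gonads at E12.5 too, by PCR for *Sry* or by shape. From E12.5 PGCs to control females of E13.5, 15 of 34 members rose (38.1% of all genes) and 10 fell (19.7%). Toward control males only *Ogdhl* and *D2hgdh* rose (28.8% of all) and 21 fell (32.1%). From E13.5 to E16.5, 4 of 34 rose in control females (34.3% of all) and 16 fell (19.6%). In IUHG females 7 rose (24.4%) and 11 fell (18.0%). In control males 10 of 35 rose (55.5% of all) and 20 fell (25.9%). In IUHG males 11 rose (57.6%) and 19 fell (24.9%). From E13.5 to E16.5 members thus fell more often than they rose, while among all genes rises were more frequent. Markers of other cell types moved over these stages as well. In control males red blood cell (5 of 5 tested), interstitial (4 of 5) and pregranulosa genes (3 of 3) rose, and of 4 Sertoli genes 2 rose and 1 fell. In control females 2 of 2 interstitial and 2 of 4 pregranulosa genes rose. A different make-up of the pools was not tested.

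Median log2 fold changes from E13.5 to E16.5 were -0.30 over members and 0.32 over all genes in control females, and -0.49 and 0.61 in control males. In IUHG they were -0.34 and 0.18 in females, and -0.28 and 0.69 in males. Between E12.5 and E13.5 they were 0.14 and 0.27 toward control females, and -0.42 and -0.03 toward control males. Control males were then compared with females, counting members with an adjusted p under 0.05. At E13.5, 7 of 34 were higher in males (22.6% of all) and 24 lower (42.5%), with medians of -0.56 over members and -0.28 over all genes. At E16.5, 9 of 35 were higher (38.9% of all) and 20 lower (33.2%), with medians of -0.75 and 0.10. Male germ cells thus had less of most members than female ones at both stages when levels were in TPM. These stage and sex comparisons share control libraries, so their counts are not independent of each other.

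Median-of-ratios scaling moved the median of all genes by more than 0.1 in 9 of the 17 comparisons and the largest shift, -0.34, was in the stage comparison of IUHG males. Members that changed sign under it numbered 8 for IUHG in E13.5 females, 3 each for IUHG at E12.5 and in E16.5 males, and 1 each in gonads and E13.5 males. For stage they were 5 in control females, 4 in control males, 6 in IUHG males and 8 from E12.5 to E13.5 females, between the sexes 4 at each stage, and for interactions 6 with sex, 2 with stage in females and 6 with stage in males. In the other 3 comparisons 0 did. Among those that had passed, the stage changes of *Mdh1* and *Slc25a1* in control males changed sign, as did those of *Idh1*, *Idh3b*, *Sdha*, *Sdhb* and *Mdh1* in IUHG males. The sign of *Sdhb* also changed between the sexes at E13.5, and those of *Sdhb* and *Sdhd* from E12.5 to E13.5 females. The medians of members from E13.5 to E16.5 became -0.56 in control females and -0.82 in control males, and those of all genes 0.10 and 0.36. Scaling shifts both medians nearly alike, so it does not test the gap between them. Shares of all genes are given for the separate fits in TPM only, so counts after scaling, here and below, have none beside them. They cannot be set against the shares in TPM. Between the sexes 8 then passed as higher and 15 as lower in males at E13.5, and 11 as higher and 18 as lower at E16.5. From E12.5 to E13.5 females 10 then rose and 14 fell, so the order of these counts was reversed by scaling. From E13.5 to E16.5, 3 then rose and 20 fell in control females, and 5 rose and 15 fell in IUHG females. In control males 7 rose and 25 fell after scaling, and in IUHG males 5 rose and 26 fell.

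**Figure D4:**
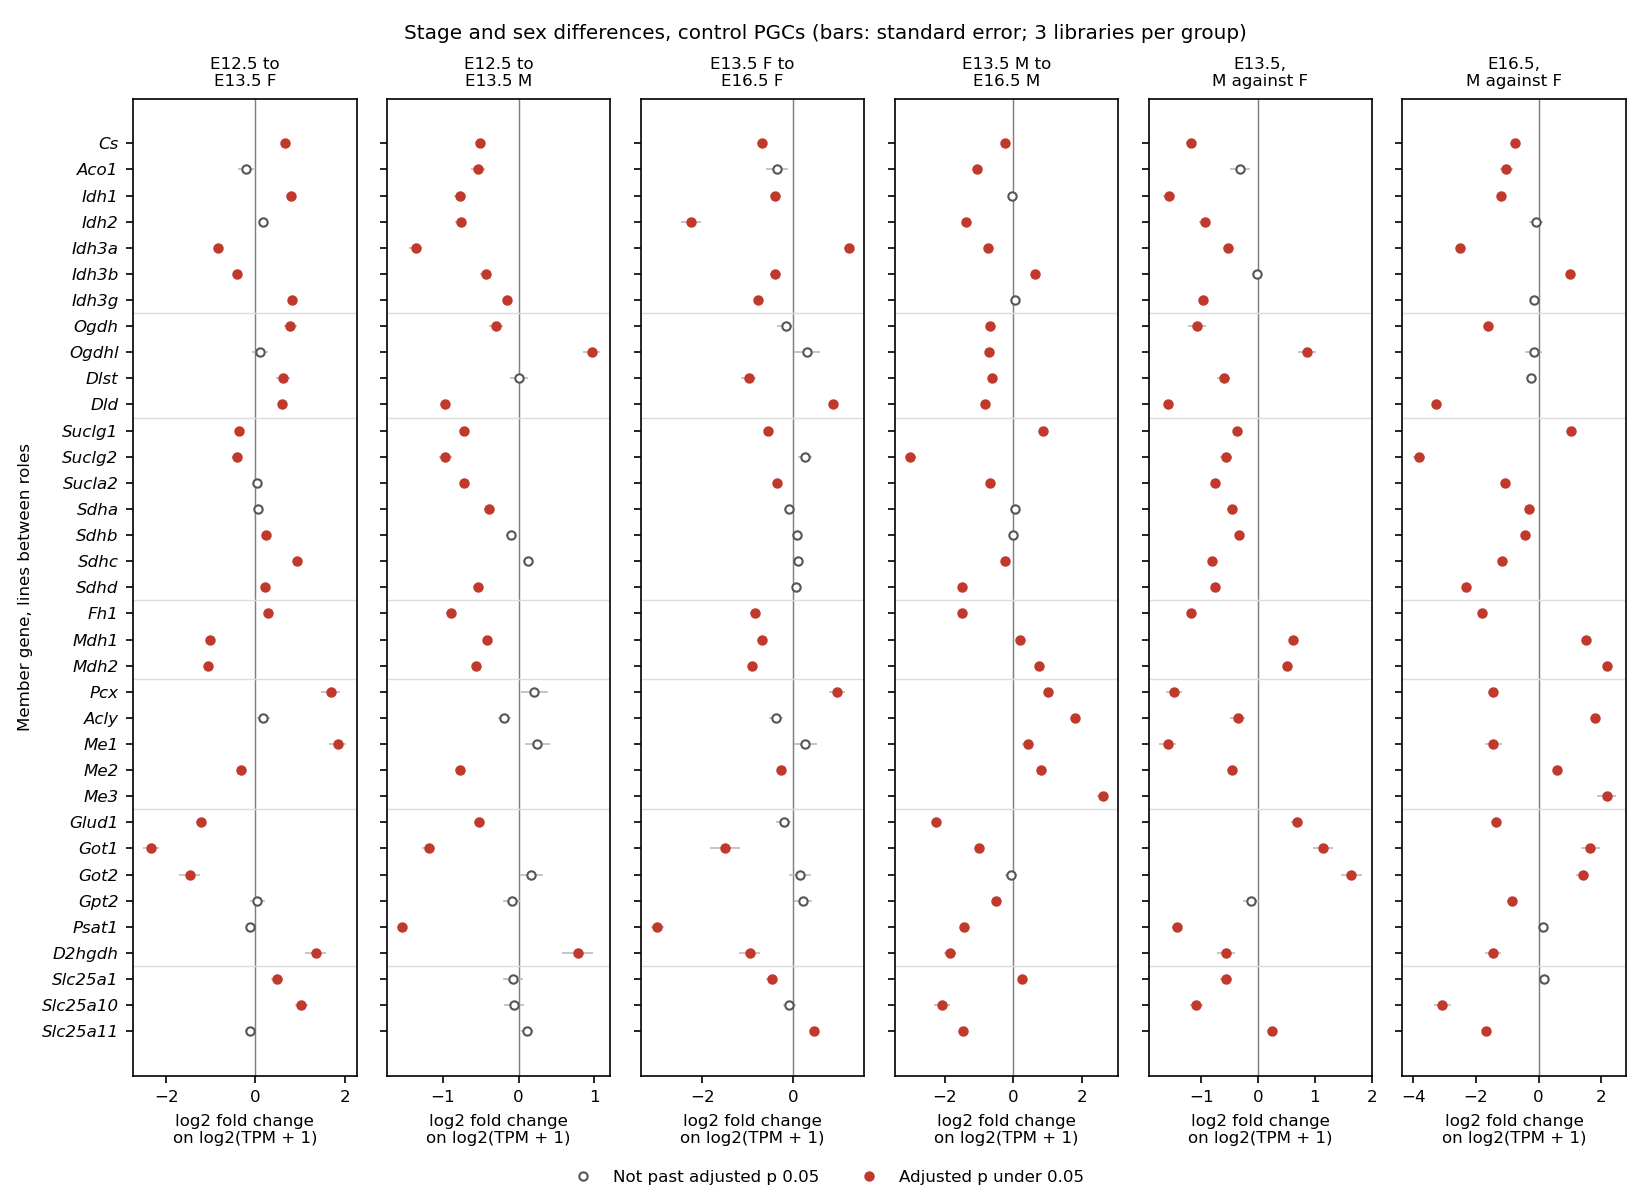
Log2 fold change of each member on the log2(TPM + 1) scale between stages and between sexes, with filled points for an adjusted p under 0.05. In TPM, 24 of 34 members are lower in males at E13.5 with an adjusted p under 0.05 (42.5% of all genes). At E16.5 these are 20 of 35 (33.2%).

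The last question was whether the IUHG effect itself differs, tested as interactions and counted at an adjusted p under 0.05. Between the sexes at E13.5 the effect was more positive in males for 2 of 34 members (4.84% of all genes) and more negative for 4 (5.04%). The number in all was 3 without male control library 2 or male IUHG library 1 and 12 without female IUHG library 3. Between E13.5 and E16.5 it was more positive at E16.5 for 6 of 34 members in females (3.29%) and more negative for 3 (2.88%), or 9 in all. With E13.5 libraries left out, this number was 1 without control library 1, 2 without control library 2 or 3, 4 without IUHG library 1, 5 without IUHG library 2 and 11 without IUHG library 3. With E16.5 libraries left out, it was 2 without any 1 of the 3 controls, 3 without IUHG library 1, 6 without IUHG library 2 and 1 without IUHG library 3. In males it was more positive for 6 of 35 (10.5%) and more negative for 4 (6.71%), with 8 to 12 when a library was left out. After median-of-ratios scaling it was more positive for 4 and more negative for 7 in males, so the order of these counts was reversed. With all PGC groups in one fit 16 passed in females and 1 in males, so which sex had more such members depended on the fit. In females 1 passed with no filter and 5 in FPKM or after median-of-ratios scaling. The number of members whose IUHG effect differed between stages thus depended on single libraries in females and on the model in both sexes.

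A list of 41 genes next to these pathways was read for context, covering pyruvate entry, glutamine and glutamate, serine synthesis and further carriers. In gonads 2 of 40 tested rose (*Pdha1* and *Dlat*, against 1.43% of all genes) and *Oat* fell (1.05%). In E12.5 PGCs 0 of 36 passed in limma (0.879% of all genes rose and 0.697% fell), with 6 at an unadjusted p under 0.05. In E13.5 female PGCs only *Slc25a13*, for a carrier of aspartate and glutamate, rose (1.06% of all did), by 1.88 (limma adjusted p = 0.018). In E13.5 male PGCs 6 of 36 rose and 8 fell, near the 15.2% and 18.0% of all genes, among them *Phgdh*, the first enzyme of serine synthesis and chosen after its values were seen, which fell with a change of -0.74 (limma adjusted p = 2.5e-04). In E16.5 females *Mpc1* rose (2.56% of all) and *Pdk2* fell (3.08%). In E16.5 males *Pdha1*, *Pdhb* and *Glul* rose among 38 tested (3.38% of all). Genes outside the members were named after their values were seen. In the separate fit of E13.5 male PGCs *Phgdh* and *Psat1*, both of serine synthesis and chosen after their values were seen, thus moved in opposite directions. Results of the other serine genes on the list are not given.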

How the data were processed

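The authors aligned reads with HISAT2 (gonads) or STAR (PGCs) and ran StringTie, whose tables were deposited. The deposited TPM had been scaled by the authors for transcript length and to one total per library. FPKM had been scaled by the authors for length and mapped fragments. Coverage, as deposited, is mean depth per base without scaling. Values were summed per gene ID, and of IDs that shared a symbol the most abundant was taken. Genes whose mean TPM reached 1 in a compared group were tested as log2(TPM + 1) with limma 3.58.1 in R 4.3.3 (eBayes with a trend, Benjamini-Hochberg), each comparison on its own groups. Members, neighbours and marker lists were chosen with earlier results of these data known. Named were *Idh2* and *Ogdh* in every IUHG comparison, up to 2 members that rose and 2 that fell with the lowest p in each of these, up to 3 each with the largest fold change for stage and sex, and those that passed an interaction. Alternatives are given at the end. Python 3.11.15, numpy 2.4.6, pandas 2.3.3 and matplotlib 3.10.9 were used otherwise.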

Additional observations from a re-analysis of the deposited data

Results flagged for a closer look

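In E13.5 PGCs the effect of IUHG was tested for a difference between males and females, and 6 members had an interaction with an adjusted p under 0.05. The value is the change in males minus that in females. For *Ogdhl* it was -1.41 (standard error 0.263, limma adjusted p = 0.0058), since all 3 IUHG libraries were lower in males and higher in females. For *Slc25a10* it was 0.93 (standard error 0.196, limma adjusted p = 0.011), with IUHG at 18.3, 20.6 and 21.7 TPM and control at 29.3, 27.3 and 29.1 TPM in females, against higher IUHG libraries in males. For *Mdh2* it was -0.56 (standard error 0.124, limma adjusted p = 0.014), since the rise was larger in females. For *Got1* it was -1.13 (standard error 0.254, limma adjusted p = 0.016) and for *Got2* -1.38 (standard error 0.327, limma adjusted p = 0.020), since both were higher in IUHG females and moved less in males. For *Sdhc* it was 0.68 (standard error 0.191, limma adjusted p = 0.042), since it fell further in females. With 1 of the 12 libraries left out, *Ogdhl* and *Slc25a10* passed in all 12 fits. *Mdh2* lost its call without male control library 2 (adjusted p = 0.052) and *Got1* without male IUHG library 1 (adjusted p = 0.051). *Got2* lost it without male control library 1 or 2 or male IUHG library 1 or 2 (adjusted p up to 0.058). *Sdhc* passed only without female IUHG library 1, 2 or 3, with adjusted p up to 0.10. The call of *Mdh2* was also lost after median-of-ratios scaling, at -0.35, and in FPKM, at -0.37. So was that of *Sdhc*, with adjusted p of 0.066 and 0.070, which also did not pass with no filter (0.094) or the replicate block (0.054). With no filter *Got2* had an adjusted p of 0.064.

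In female PGCs 9 members had an effect of IUHG that differed between E13.5 and E16.5, given as the change at E16.5 minus that at E13.5. It was more positive at E16.5 for *Pcx*, at 1.56 (standard error 0.384, limma adjusted p = 0.029). *D2hgdh* had 1.55 (standard error 0.409, limma adjusted p = 0.038) and *Idh1* 1.12 (standard error 0.308, limma adjusted p = 0.046). *Cs* had 0.98 (standard error 0.257, limma adjusted p = 0.036), from 238, 207 and 256 TPM in control and 139.8, 175 and 249 TPM in IUHG libraries of E13.5. *Sdhc* had 0.88 (standard error 0.213, limma adjusted p = 0.027) and *Sdhb* 0.73 (standard error 0.194, limma adjusted p = 0.038). It was more negative for *Got1*, at -1.99 (standard error 0.481, limma adjusted p = 0.026), *Slc25a1*, at -0.99 (standard error 0.265, limma adjusted p = 0.041), and *Mdh2*, at -0.92 (standard error 0.151, limma adjusted p = 0.0027). *Mdh2* passed in all 12 fits with 1 library left out, but not after median-of-ratios scaling (-0.81) or in FPKM (-0.80). *Sdhb*, *Sdhc* and *Slc25a1* did not pass in these settings either, with adjusted p of 0.064 to 0.12, and with no filter *Mdh2* alone passed. The other 8 lost their calls without single libraries, with adjusted p up to 0.11, and the lowest number that passed was 1, without control library 1 of E13.5 or IUHG library 3 of E16.5. Calls that were lost in most fits were those of *Cs*, which passed in 1 of 12, of *Idh1*, *D2hgdh* and *Slc25a1*, each in 2, of *Sdhb*, in 3, and of *Sdhc*, in 5. *Pcx* and *Got1* passed in 6.

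In male PGCs 10 members had such a difference between the stages. It was more positive at E16.5 for *Acly*, at 1.15 (standard error 0.103, limma adjusted p = 1.5e-05), and *D2hgdh*, at 0.88 (standard error 0.237, limma adjusted p = 0.023). *Ogdhl* had 0.66 (standard error 0.132, limma adjusted p = 0.0043), *Idh1* 0.45 (standard error 0.112, limma adjusted p = 0.015), *Sucla2* 0.40 (standard error 0.0800, limma adjusted p = 0.0048) and *Sdha* 0.35 (standard error 0.0870, limma adjusted p = 0.015). It was more negative for *Idh2*, at -0.66 (standard error 0.117, limma adjusted p = 0.0022), *Slc25a1*, at -0.58 (standard error 0.115, limma adjusted p = 0.0044), *Pcx*, at -0.54 (standard error 0.161, limma adjusted p = 0.037), and *Idh3g*, at -0.50 (standard error 0.0991, limma adjusted p = 0.0046). Of these, 8 passed in all 12 fits with 1 library left out. *D2hgdh* did so in 8 and *Pcx* in 5, with adjusted p up to 0.063 and 0.087. *D2hgdh* was lost without control library 2 or IUHG library 2 of E13.5, or control library 3 or IUHG library 2 of E16.5. Its E16.5 levels in males were low, at 0.852, 1.60 and 0.836 TPM in control and 1.70, 1.73 and 1.18 TPM in IUHG libraries. Small changes there cannot be resolved. *Pcx* was lost without control library 1 or 3 or IUHG library 2 or 3 of E13.5, or control library 2 or IUHG library 2 or 3 of E16.5. In 1 fit of all PGC groups only *Acly* passed, with adjusted p of 0.071 to 0.45 for the other 9. After median-of-ratios scaling *Idh1* (adjusted p = 0.078) and *Sdha* (adjusted p = 0.11) did not pass. With no filter *Pcx* (adjusted p = 0.085) and *D2hgdh* (adjusted p = 0.050) did not, and *Pcx* did not with the replicate block (adjusted p = 0.057). The E13.5 libraries are shared with the comparison of the sexes, so these tests are not independent of it. Causes of these differences were not tested.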

How the results depend on the processing

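Members named for stage and sex were those with the largest fold changes among members that had passed, so their calls were likely to be kept. None of these lost its call under median-of-ratios scaling, FPKM, no filter, a pseudocount of 0.1, all PGC groups in one fit or the replicate block. This says nothing of the passing members not named, some of which changed sign after scaling, as given above. Named IUHG effects and interactions did lose calls. With no filter 20 such calls were lost, with all PGC groups in one fit 11, after median-of-ratios scaling 9, in FPKM 7 and with the replicate block 2. Over these settings and the fits with 1 library left out, 1298 fold changes of named members were compared, the stage and sex differences chosen by size included. Of these, 1121 kept direction and side of the threshold, 171 lost the call, 1 gained it and 5 changed sign. Those 5 were not past the threshold, namely *Idh2* in E16.5 males (-0.0102 in FPKM, -0.0013 after median-of-ratios scaling, -0.0222 without control 1, up to 0.0894), *Idh2* in E16.5 females (-0.2617 to 0.2188 over libraries left out) and *Ogdh* in E13.5 males (-0.0209 to 0.1142). Numbers of members that passed moved by over 1.5 times as follows, with no shares of all genes beside them in these settings. Without a filter, with more genes to adjust over, they were 0 in gonads, 0 in E13.5 and 0 in E16.5 females, and 1 for the female stage interaction. In FPKM there was 1 at E12.5 and 5 for the female stage interaction, which had 5 after median-of-ratios scaling. With all PGC groups in one fit there were 1 at E12.5, 12 in E13.5 females, 3 in E13.5 males, 9 in E16.5 females, 29 for stage in IUHG females, 16 for the female and 1 for the male stage interaction. With an adjusted p under 0.05 in place of 0.01 in PGCs and with no fold threshold, the members counted as DEGs were 3 in gonads, 3 in E13.5 females, 17 in E13.5 males, 3 in E16.5 females and 3 in E16.5 males. With 1 library left out the range was 0 to 2 in gonads, 0 to 9 in E13.5 females, 1 to 6 in E16.5 females, 1 to 3 in E16.5 males, 3 to 12 for the sex interaction and 1 to 11 for the female stage interaction. With the replicate number as a block (replicate block) the counts were 2 in gonads, 0 at E12.5, 4 in E13.5 females, 18 in E13.5 males, 2 in E16.5 females and 2 in E16.5 males. The causes were not tested. Replicate numbers do not mark pairs as far as the values show, with correlations of -0.085 to 0.126 between libraries of the same number. With 3 pools per group and no read counts, small changes of low genes such as *Me3* and *D2hgdh* cannot be resolved.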
